A study of Mus musculus with 6 samples.

Results

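The transforming growth factor beta (TGF-beta) and bone morphogenetic protein (BMP) pathway was described here through 50 genes, with endoglin (Eng) as one of them. The members were taken by symbol from a fixed list: each had to have a probe set with exactly 1 gene symbol in the array annotation, and the brightest probe set over all 6 arrays stood for the gene. In all, 49 of the 50 were measured, among 22180 genes on the array, and Gdf15 was not analysed here. Levels are log2 of the deposited array intensities. A change is a log2 difference, Tie2-Cre minus no Cre, so that a positive value is a higher level with Tie2-Cre.

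Ligands of this family are secreted dimers that bring type I and type II receptor kinases together at the cell surface. The activated type I receptor phosphorylates receptor-regulated Smad proteins, which join the common Smad4 and act on genes in the nucleus. TGF-beta and activin signal mainly through Smad2 and Smad3, and BMPs through Smad1, Smad5 and Smad9, the Id genes being well-known BMP targets. In blood vessels endoglin is a co-receptor that presents BMP ligands to the type I receptor Acvrl1 (ALK1), and it is abundant on growing vessels.

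The cells were obtained from gliomas of mice and carry the label of tumor-associated endothelial cells. They were captured on magnetic beads with an antibody to CD105, which is endoglin itself, so the product of one member was also the handle of the isolation. After isolation they were held for 12 h in glioma-conditioned medium. The Tie2-Cre group held mice 1, 3 and 4 (Tie2-Cre,Pfn1fl/fl:Y129F), and the no Cre group held mice 6, 7 and 10 (Pfn1fl/fl:Y129F), with 1 array per mouse. The floxed Pfn1 alleles and the Y129F form of Pfn1, the gene of the actin-binding protein profilin-1, were thus shared by both groups, which differed in the Cre recombinase. Cre was driven by the promoter of Tie2, a receptor of endothelial cells and of some blood cells. How Cre rearranged the Pfn1 alleles, the ages of the mice and whether the cells of a mouse came from 1 tumor are not stated. The study asked what phosphorylation of profilin-1 does to gene expression.

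The 6 arrays were on one scale, with array medians of 7.08 to 7.14 over genes, and correlated at 0.994 to 0.996 within the groups and 0.986 to 0.988 between them. Sex-linked genes separated the groups: Xist, which is transcribed from the inactive X chromosome, averaged 5.75 with Tie2-Cre and 11.35 without Cre, and the Y-linked Kdm5d, Uty and Eif2s3y were all higher with Tie2-Cre. Sex and genotype therefore cannot be told apart in any value given here. Of 15 endothelial markers, 13 lay under the median gene level of 7.12, among them Pecam1, Cdh5, Kdr and Emcn. Tek, the gene of Tie2, was another, at 5.68 with Tie2-Cre and 5.91 without Cre. The label was thus not borne out by its defining markers, although brightness differs between probe sets. Under the same median lay 1 of 12 pericyte and smooth muscle markers and 2 of 12 fibroblast markers. The counts were 6 of 12 for mesothelial, 9 of 13 for macrophage, and 6 of 8 for astrocyte and glioma markers. Of the 15 endothelial markers, Ecscr was higher with Tie2-Cre (8.27 against 7.09) and 0 were lower. The summed intensity of the 15 was 1478 to 1533 with Tie2-Cre and 1329 to 1363 without Cre. Without Ecscr the sums of the other 14 overlapped, at 1144 to 1217 and 1192 to 1227. Markers of pericytes and smooth muscle were higher with Tie2-Cre for 6 of 12 genes and lower for 0, and their summed intensity was 31039 to 37783 against 21945 to 23324. Of 12 fibroblast markers, 4 were higher and 1 was lower, with sums of 22801 to 25703 against 21289 to 21520. Mesothelial markers summed to 1813 to 1932 with Tie2-Cre and 4168 to 4562 without Cre, where 4 of 12 were lower and 1 was higher with Tie2-Cre. Macrophage markers summed to 1345 to 1438 against 1545 to 1638, with 2 of 13 lower. The 8 markers of astrocytes and glioma cells summed to 881 to 924 with Tie2-Cre and 709 to 822 without, with Nes higher by 0.59 and 0 lower. Markers counted as higher or lower had a limma adjusted p under 0.05, which 12.0% of all genes reached (4.78% higher, 7.17% lower). The shares were 6.67% of endothelial, 50% of pericyte and smooth muscle and 41.7% of fibroblast markers. They were 41.7% of mesothelial, 15.4% of macrophage and 12.5% of astrocyte and glioma markers. No probe set was at 0, since the lowest deposited intensity was 5.13, and the part of these marker differences in the results on the pathway was not tested. In RNA from bulk samples, fewer cells of a type and less RNA per cell cannot be told apart.

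The largest changes among the members were a rise of the ligand Bmp6 and a fall of the ligand Gdf6, by 2.75-fold and 3.70-fold. None of the 10 type I and type II receptors passed the threshold, beside 12.0% of all genes, which for so few genes is a count near the background. Of the 49 measured members, 10 passed a limma adjusted p under 0.05. Bmp6, Id4, Bmp4, Tgfb2 and Fst were higher with Tie2-Cre, and Gdf6, Bmper, Smurf2, Fstl3 and Eng were lower. These 10 were 20.4% of the members, beside 12.0% of all genes tested. Members were also brighter, with a median level of 9.37 against 7.12 and 5 of 49 under the median gene level. Without the dimmest 33.3% of genes, 1360 genes were higher and 1950 lower, in place of 1061 and 1591, so the background share depends on brightness. With that filter the members past the threshold rose as well, to 17 of the 46 members kept, in place of 10 of 49. No share was taken among genes of like brightness, so a gap to all genes is not shown to be particular to the pathway. The background was 4.78% for genes higher with Tie2-Cre and 7.17% for genes lower. The groups did not overlap for 27 members (55.1%), with Tie2-Cre above in 17 and below in 10. Over all 22180 genes they did not overlap for 31.0%, with Tie2-Cre above in 3012 and below in 3873. An unadjusted limma p under 0.05 was reached by 20 of the 49 members and by 5524 of 22180 genes (24.9%). The median change was 0.068 over members and -0.0042 over all genes. A positive change was seen in 34 of 49 members and in 10853 of all 22180 genes (48.9%).

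**Figure D1:**
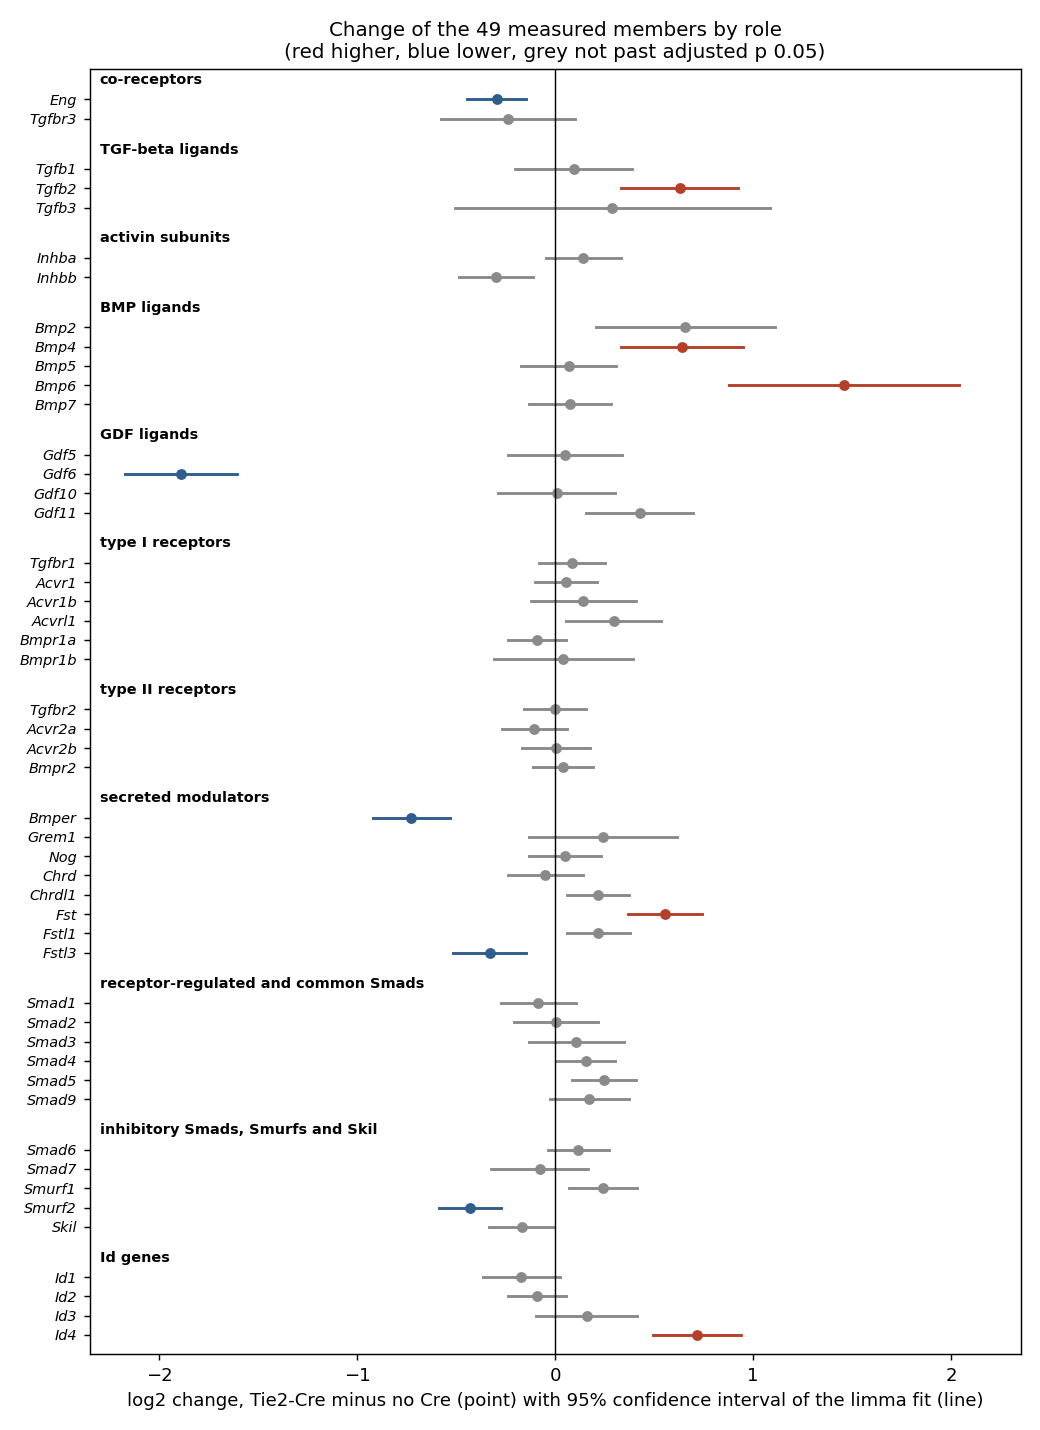
Log2 change of each of the 49 measured members, Tie2-Cre minus no Cre (x axis), ordered by role (y axis), as a point with the 95% confidence interval of the limma fit as a line. The 10 coloured genes passed an adjusted p under 0.05, with Bmp6 at 1.46 and Gdf6 at -1.89 as the extremes, and all intervals of type I and type II receptors lay between -0.31 and 0.54.

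To place the members on the genome, the 250 bases before the transcription start were read from RefSeq's mouse promoter table (build GRCm38.p6), which held 35 of the 50 members in 41 windows. The windows were searched on both strands for GGCGCC, a GC-rich element bound by BMP Smads, for the short Smad box CAGAC or its reverse complement GTCTG, and for the palindrome GTCTAGAC. The promoters printed are those of endoglin and of 3 other members past the threshold, chosen after their values were seen to show each pattern of matches. Capitals mark the matches, and each sequence runs 5′ to 3′ on the strand of the gene. Eng lies on chromosome 2, + strand, chr2:32646345-32646594. Bmp6 lies on chromosome 13, + strand, chr13:38345466-38345715. Id4 lies on the same chromosome and strand, chr13:48260866-48261115. Smurf2 lies on chromosome 11, - strand, chr11:106920716-106920965.
Eng: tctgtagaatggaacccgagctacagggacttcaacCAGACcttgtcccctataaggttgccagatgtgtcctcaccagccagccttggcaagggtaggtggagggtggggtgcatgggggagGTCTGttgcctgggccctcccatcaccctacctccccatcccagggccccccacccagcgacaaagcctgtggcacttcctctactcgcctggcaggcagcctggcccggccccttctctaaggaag
Bmp6: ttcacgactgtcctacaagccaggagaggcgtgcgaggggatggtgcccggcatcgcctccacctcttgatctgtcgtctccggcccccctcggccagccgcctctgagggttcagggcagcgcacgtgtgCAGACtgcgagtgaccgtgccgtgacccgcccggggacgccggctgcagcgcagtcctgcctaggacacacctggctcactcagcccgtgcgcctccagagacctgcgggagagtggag
Smurf2: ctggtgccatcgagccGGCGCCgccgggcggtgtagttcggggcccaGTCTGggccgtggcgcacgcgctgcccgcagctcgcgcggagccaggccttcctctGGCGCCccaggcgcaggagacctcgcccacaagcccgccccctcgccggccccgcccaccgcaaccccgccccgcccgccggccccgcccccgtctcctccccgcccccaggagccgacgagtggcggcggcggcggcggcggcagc
Id4: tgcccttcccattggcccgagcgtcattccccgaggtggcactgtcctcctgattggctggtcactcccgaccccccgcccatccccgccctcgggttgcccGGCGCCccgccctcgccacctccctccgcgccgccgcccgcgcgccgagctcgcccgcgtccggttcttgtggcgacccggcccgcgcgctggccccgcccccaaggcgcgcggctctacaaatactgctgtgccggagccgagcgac

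The Eng window held CAGAC at 214 and, on the other strand, at 127 bases before the start, and no GGCGCC. The Bmp6 window held 1 CAGAC, 119 bases before the start. Smurf2 had GGCGCC at 234 and 147 bases and, on the other strand, CAGAC at 203 bases. Id4 had a single GGCGCC at 148 bases. Over the members, GGCGCC stood in 10 of the 41 windows (24.4%) and in 9.59% of 32851 windows of the table, while CAGAC stood in 46.3% and 42.2%. Member windows were richer in G and C, with a median of 68.0% against 52.4%. GTCTAGAC was in 0 member windows and 0.167% of all. Among the 8 members past the threshold with a window, 2 held GGCGCC and 5 held CAGAC. A match describes letters and is neither a binding site nor a cause of a change.

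Endoglin was lower with Tie2-Cre. Its level was 11.76, 11.79 and 11.72 in Tie2-Cre mice 1, 3 and 4, and 12.04, 12.09 and 12.03 in no Cre mice 6, 7 and 10. The groups did not overlap, and both were tight, with an SD of 0.03 and 0.04. The change was -0.30 (SE 0.064, 95% confidence interval -0.44 to -0.15, limma adjusted p = 0.0217), a level 1.23-fold lower. With 1 mouse left out the call held for mouse 3 (adjusted p = 0.0474), and was lost for each of mice 1, 4, 6, 7 and 10 (adjusted p = 0.0571 to 0.0827). The change was -0.31 to -0.28, and its direction could not turn because the groups did not overlap. Both groups had been selected on the endoglin protein, so this difference is one among cells that had passed the same antibody. The second co-receptor, Tgfbr3 (betaglycan, which presents TGF-beta to its receptors), was 9.42, 9.45 and 8.88 against 9.49, 9.55 and 9.43. Its groups overlapped, mouse 4 being the low one, and the change of -0.24 had an adjusted p of 0.384. Without mouse 4 it was -0.051 (adjusted p = 0.753).

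**Figure D2:**
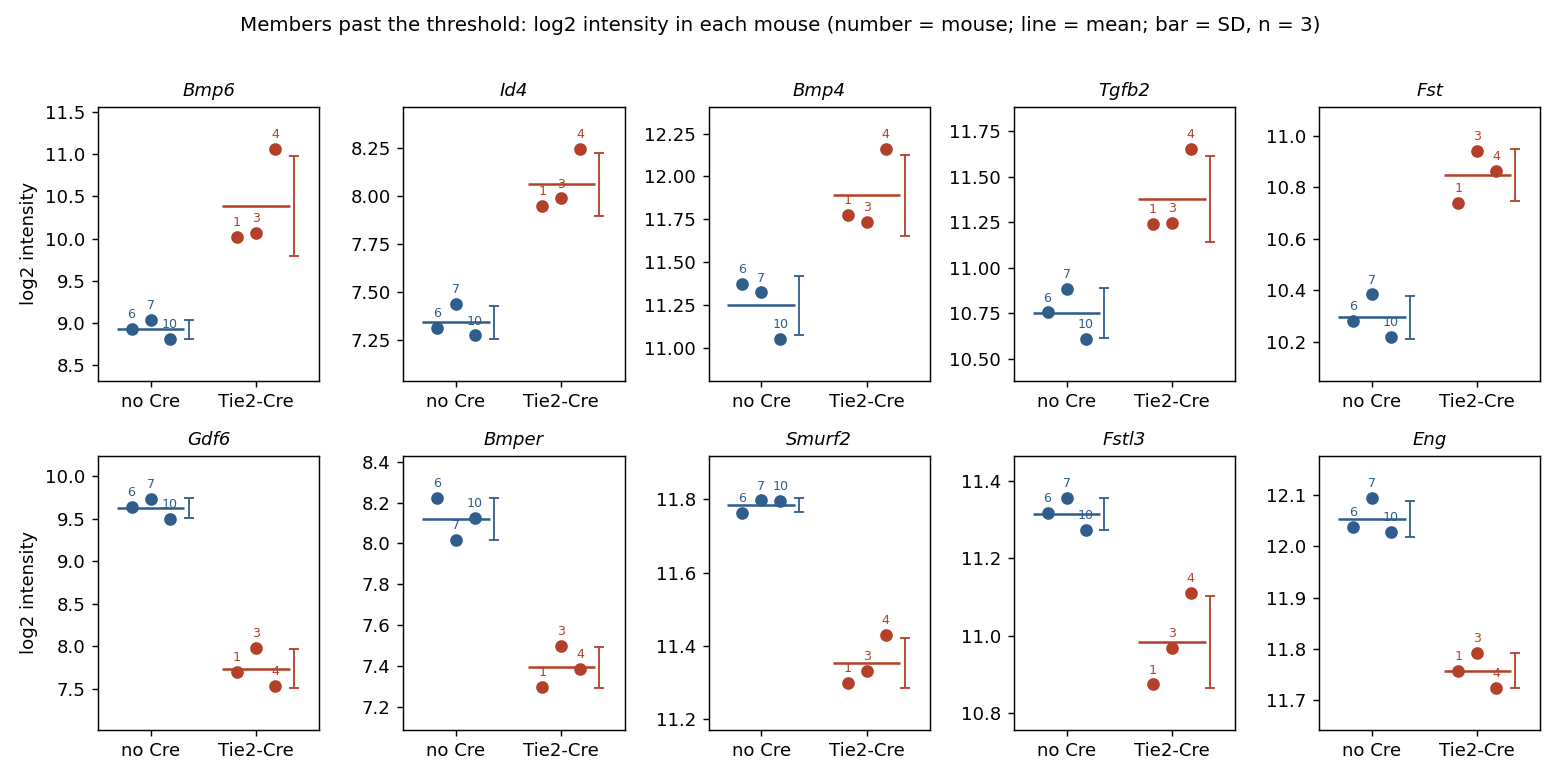
Log2 level in each mouse (y axis) for the 10 members with an adjusted p under 0.05, by group (x axis), with numbered points for mice, a line at each group mean and a bar for the SD (n = 3). The groups are separate for each gene, and Tie2-Cre mouse 4 is the highest point for Bmp6 (11.06), Bmp4 (12.16), Tgfb2 (11.65) and Id4 (8.25).

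Among the TGF-beta ligands, the change past the threshold was in Tgfb2. It stood at 11.24, 11.25 and 11.65 with Tie2-Cre and at 10.76, 10.89 and 10.61 without Cre. All Tie2-Cre mice were above all no Cre mice, by a mean of 0.63 (SE 0.127, adjusted p = 0.0166), or 1.55-fold. The call was lost without no Cre mouse 6 (adjusted p = 0.0502) or 10 (0.0655). Tgfb3, the third TGF-beta isoform, depended on 1 mouse: 11.41, 11.40 and 12.84 with Tie2-Cre against 11.62, 11.61 and 11.56. Mice 1 and 3 were below the no Cre group and mouse 4 far above it, so the mean change of 0.29 (adjusted p = 0.677) describes none of the mice, and it was -0.19 without mouse 4. Tgfb1, the isoform most studied in vessels, averaged 9.47 and 9.38, with overlapping groups.

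Activin subunits pair to form activins, or inhibins with an alpha subunit. Inhbb was 7.90, 8.06 and 8.13 with Tie2-Cre and 8.29, 8.39 and 8.30 without. The groups were apart, and the change of -0.30 lay just outside the threshold (SE 0.0805, adjusted p = 0.0504). It passed without Tie2-Cre mouse 4 (adjusted p = 0.0480) and not without any other mouse (0.0970 to 0.154), with a change of -0.23 without mouse 1. Inhba, the subunit of activin A, averaged 10.61 and 10.47 (adjusted p = 0.344).

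BMP ligands held the largest rise. Bmp6, an iron-responsive ligand made by endothelial cells in the liver, stood at 10.02, 10.07 and 11.06 with Tie2-Cre and at 8.93, 9.03 and 8.81 without. Every Tie2-Cre mouse was above every no Cre mouse, and mouse 4 stood 1.02 above the mean of mice 1 and 3. The change was 1.46 (SE 0.252, interval 0.88 to 2.04, adjusted p = 0.0083), and it was 1.12 to 1.64 with any 1 mouse left out, past the threshold each time. Bmp4, a ligand with wide roles in vessel and mesenchyme formation, was 11.78, 11.73 and 12.16 against 11.37, 11.32 and 11.05. The groups were again apart, by 0.64 (SE 0.134, adjusted p = 0.0187), or 1.56-fold, and the call was lost without no Cre mouse 10 (adjusted p = 0.0657).

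Bmp2, close in sequence to Bmp4, was 7.44, 7.14 and 7.19 with Tie2-Cre and 6.12, 6.94 and 6.73 without. Its mean difference was 0.66, beside 0.64 for Bmp4, but the no Cre mice had an SD of 0.43 and the adjusted p was 0.0719. Without no Cre mouse 7 the change was 0.83 and passed (adjusted p = 0.0436), and without no Cre mouse 6, the lowest, it was 0.42 (adjusted p = 0.0845). With any other mouse left out the adjusted p was 0.120 to 0.197. Bmp5 and Bmp7, the other BMP ligands, averaged 5.82 and 7.60 with Tie2-Cre and 5.76 and 7.53 without Cre, with overlapping groups and adjusted p of 0.756 and 0.679.

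Growth and differentiation factors (GDFs) held the largest fall. Gdf6, a ligand of joint and eye formation that uses BMP receptors, was 7.70, 7.98 and 7.53 with Tie2-Cre and 9.64, 9.74 and 9.50 without. More than 1 log2 unit separated the highest Tie2-Cre mouse from the lowest no Cre mouse. The change was -1.89 (SE 0.122, interval -2.17 to -1.61, adjusted p = 8.98e-05), or 3.70-fold lower. It was -2.01 to -1.79 with any 1 mouse left out, and past the threshold each time. All mice were above the median gene level of 7.12. Array values hold some background, and no detection call was used here, so the fold may still be understated.

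Gdf11, a relative of myostatin that signals through activin receptors, was 8.82, 9.18 and 8.74 against 8.52, 8.52 and 8.43. All 3 Tie2-Cre mice were higher, by 0.43 on average, with an adjusted p of 0.0528. Without mouse 4 the adjusted p was 0.0384, and without any other mouse it was 0.0703 to 0.152, with a change as low as 0.29 without mouse 3. Gdf5, a ligand of joint formation, averaged 7.37 and 7.33, and Gdf10 averaged 6.66 in both groups. A further Gdf5 probe set, dimmer than the one used, differed by -0.016.

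No receptor kinase passed the threshold, beside 12.0% of all genes, so for 10 genes the count was near the background. The 6 type I receptors and 4 type II receptors had changes of -0.10 to 0.30, with 95% confidence intervals that reached from -0.31 to 0.54, and the smallest adjusted p was 0.117. That smallest value belonged to Acvrl1, the endothelial type I receptor for BMP ligands, which stood at 9.30, 9.42 and 9.65 with Tie2-Cre and 9.19, 9.25 and 9.05 without. Its groups were apart by a narrow gap, with a mean change of 0.30 (SE 0.104). Eng, its co-receptor, thus had a change of the same size in the other direction, which for Eng passed the threshold.

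Tgfbr1 and Tgfbr2, the pair that binds TGF-beta, averaged 8.35 and 9.86 with Tie2-Cre and 8.27 and 9.86 without Cre. The interval for Tgfbr2 was -0.16 to 0.16. Bmpr2, the main type II receptor for BMPs, averaged 12.59 and 12.55. Bmpr1a and Bmpr1b, type I receptors for BMPs, averaged 10.49 and 5.46 with Tie2-Cre and 10.58 and 5.42 without Cre. With mouse 4 left out the change of Bmpr1b turned from 0.042 to -0.11. The activin receptors Acvr1b, Acvr2a and Acvr2b and the BMP and activin receptor Acvr1 averaged 8.92, 7.76, 7.12 and 9.55 with Tie2-Cre, against 8.78, 7.86, 7.12 and 9.49. Groups did not overlap for Acvrl1, Bmpr1a and Acvr2a, which is 3 of the 10 receptors (30.0%) beside 31.0% of all genes.

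Secreted modulators moved in both directions, with 1 higher and 2 lower among 8 (37.5%, beside 12.0% of all genes). Bmper, an extracellular BMP-binding protein of endothelial cells and their precursors, was 7.30, 7.50 and 7.39 with Tie2-Cre and 8.22, 8.02 and 8.12 without. No mouse of one group reached the other, and the change was -0.73 (SE 0.0846, interval -0.92 to -0.53, adjusted p = 0.00142). Follistatin (Fst), which binds and blocks activins, was 10.74, 10.94 and 10.86 against 10.28, 10.38 and 10.22. It was higher in every Tie2-Cre mouse, by 0.55 (SE 0.0810, adjusted p = 0.00400). Fstl3, a follistatin relative that blocks activin and myostatin, went the other way, with 10.87, 10.97 and 11.11 against 11.32, 11.35 and 11.27. The change of Fstl3 was -0.33 (SE 0.0795, adjusted p = 0.0330). Its call held when mouse 4 was left out, and was lost when any of mice 1, 3, 6, 7 and 10 was (adjusted p = 0.0766 to 0.109). The calls of Bmper and Fst held without any 1 mouse.

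Grem1 (gremlin, a BMP antagonist that binds Bmp2 and Bmp4) split the Tie2-Cre group, with 11.87 and 11.77 in mice 1 and 3 and 11.21 in mouse 4. The no Cre mice lay between, at 11.33, 11.33 and 11.46. Over all mice the change was 0.24 (adjusted p = 0.422), and without mouse 4 it was 0.45 and passed the threshold (adjusted p = 0.0179). It was 0.11 without mouse 1 (adjusted p = 0.755) and 0.16 without mouse 3 (0.658). Chordin-like 1 (Chrdl1), another BMP antagonist, was 8.98, 9.08 and 9.01 against 8.83, 8.84 and 8.75. Its groups were apart by 0.22 on average (adjusted p = 0.0812). Fstl1, a secreted glycoprotein that binds ligands of the family, was 12.75, 12.72 and 12.61 against 12.48, 12.50 and 12.44, with the same change of 0.22 (adjusted p = 0.0865). Noggin (Nog) and chordin (Chrd), which bind BMPs outside the cell, averaged 6.03 and 7.20 with Tie2-Cre and 5.98 and 7.25 without Cre, with overlapping groups.

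None of the 6 receptor-regulated and common Smads passed the threshold, beside 12.0% of all genes, and their changes ran from -0.084 to 0.25. Smad5, one of the BMP Smads, was 8.06, 8.08 and 7.94 with Tie2-Cre and 7.82, 7.73 and 7.79 without. The groups were apart by 0.25 on average (SE 0.0700, adjusted p = 0.0613), and Smad5 passed under 4 of 15 alternatives (adjusted p = 0.0278 to 0.0460). Smad4, the common partner, was 10.75, 10.72 and 10.71 against 10.54, 10.56 and 10.62. This was a mean change of 0.15 with no overlap and an adjusted p of 0.180. The other BMP Smads, Smad1 and Smad9, averaged 8.70 and 8.21 with Tie2-Cre and 8.79 and 8.03 without Cre. Smad2 and Smad3, which carry TGF-beta and activin signals, averaged 9.63 and 9.53 with Tie2-Cre and 9.62 and 9.42 without Cre.

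Among the 5 intracellular inhibitors, 1 passed the threshold (20%, beside 12.0% of all genes), Smurf2, which was lower. This ubiquitin ligase marks receptors and Smads for degradation, and it stood at 11.30, 11.33 and 11.43 with Tie2-Cre and at 11.76, 11.80 and 11.79 without. The groups lay well apart, with a change of -0.43 (SE 0.0673, interval -0.59 to -0.27, adjusted p = 0.00531) that passed without any 1 mouse. Smurf1, its paralog, was 10.38, 10.51 and 10.53 against 10.19, 10.21 and 10.30. Its Tie2-Cre mice were all higher, by 0.24 on average, with an adjusted p of 0.0766, and the difference between the paralogs was not tested. Skil (SnoN, a corepressor of Smads) was 8.69, 8.81 and 8.80 against 8.93, 8.88 and 9.00, a change of -0.17 (adjusted p = 0.187) between groups that were just apart. The inhibitory Smads, Smad6 and Smad7, which are induced by BMP and TGF-beta and block the receptors, averaged 9.96 and 10.99 with Tie2-Cre and 9.84 and 11.06 without Cre, and neither passed (adjusted p = 0.337 and 0.721).

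The 4 Id genes encode inhibitors of DNA binding that BMP Smads induce, and 1 of them passed the threshold (25%, beside 12.0% of all genes). Id4 was 7.95, 7.99 and 8.25 with Tie2-Cre and 7.31, 7.44 and 7.28 without. The lowest Tie2-Cre mouse was above the highest no Cre mouse, and the change was 0.72 (SE 0.0964, interval 0.50 to 0.94, adjusted p = 0.00262), or 1.64-fold, which held without any 1 mouse. Id1, the Id gene most tied to endothelial BMP signalling, was not past the threshold, with means of 8.88 and 9.05 (change -0.17, interval -0.36 to 0.025, adjusted p = 0.268). Id2 averaged 10.78 and 10.87, and Id3 averaged 11.04 and 10.88.

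A further 93 measured genes of the pathway were described by the same fit. Of these, 14 were higher and 6 lower with Tie2-Cre (21.5%, beside 12.0% of all genes), with a median change of 0.046. They too were brighter, with a median level of 8.70 against 7.12 over all genes. Of 15 genes that hold TGF-beta latent or release it, 5 were higher and 0 lower (33.3%, beside the same 12.0%). Ltbp4, a protein that tethers latent TGF-beta to the matrix, was higher by 0.94 (SE 0.0942, adjusted p = 0.000724). The integrin subunits Itgb8 and Itgav, which together activate latent TGF-beta, were higher by 1.04 and 0.53 (adjusted p = 0.00466 and 0.00397). With the mean of all its probe sets, Itgav differed by 0.24 (adjusted p = 0.0906). Ltbp2, of the same protein family as Ltbp4, and Lrrc32, which anchors latent TGF-beta at the cell surface, completed the 5 at 0.64 and 0.65 and were named after their values were seen.

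Among 14 other antagonists and carriers, 2 were higher and 2 lower (28.6%, beside 12.0% of all genes). The matrix proteins Smoc2 and Fmod were higher by 1.03 and 0.34, and decorin (Dcn), a proteoglycan that binds TGF-beta, was lower at -0.76. Dcn also stood in the fibroblast list, whose other called members were higher. Twsg1, a BMP-binding partner of chordin named after its value was seen, was lower at -0.25. Of 17 other ligands (11.8% past the threshold), Bmp3 was higher by 0.60 and Bmp8a lower at -0.34. Of 6 other receptors and co-receptors (33.3% past the threshold), Vasn and Rgmb were higher by 0.42 and 0.28. None of 19 other intracellular regulators passed limma's adjusted threshold, and 5 had an unadjusted p under 0.05, beside 12.0% and 24.9% of all genes.

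Genes known to respond to TGF-beta moved both ways, with 4 of 14 higher and 2 lower (42.9%, beside 12.0% of all genes). The cell cycle inhibitor Cdkn2b was higher by 1.24 and the repressor Snai2 by 0.80, while the chromatin protein Hmga2 was lower at -0.63. Tgfbi, Acta2 and Bhlhe40, named after their values were seen, changed by 0.68, 0.47 and -0.37. Acta2, smooth muscle actin, also stood in the list of pericyte and smooth muscle markers. Of 8 BMP response genes, 1 passed the threshold (12.5%, beside 12.0% of all genes). This was Hamp, the iron hormone hepcidin, which was lower, with a mean of 3.65 against 6.80 (adjusted p = 2.00e-05). Both means were under the median gene level and the Tie2-Cre one was near the bottom of the scale (lowest value 2.36), so the size of its difference is not exact. With 1 mouse left out, Bmp8a lost its call for each of mice 1, 4, 6, 7 and 10, Bhlhe40 for each of mice 3, 4, 6, 7 and 10, and Fmod for each of mice 1, 6 and 7. Rgmb and Twsg1 lost theirs without any 1 of the 6 mice, with adjusted p of 0.0507 to 0.143 and 0.0583 to 0.140.

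**Figure D3:**
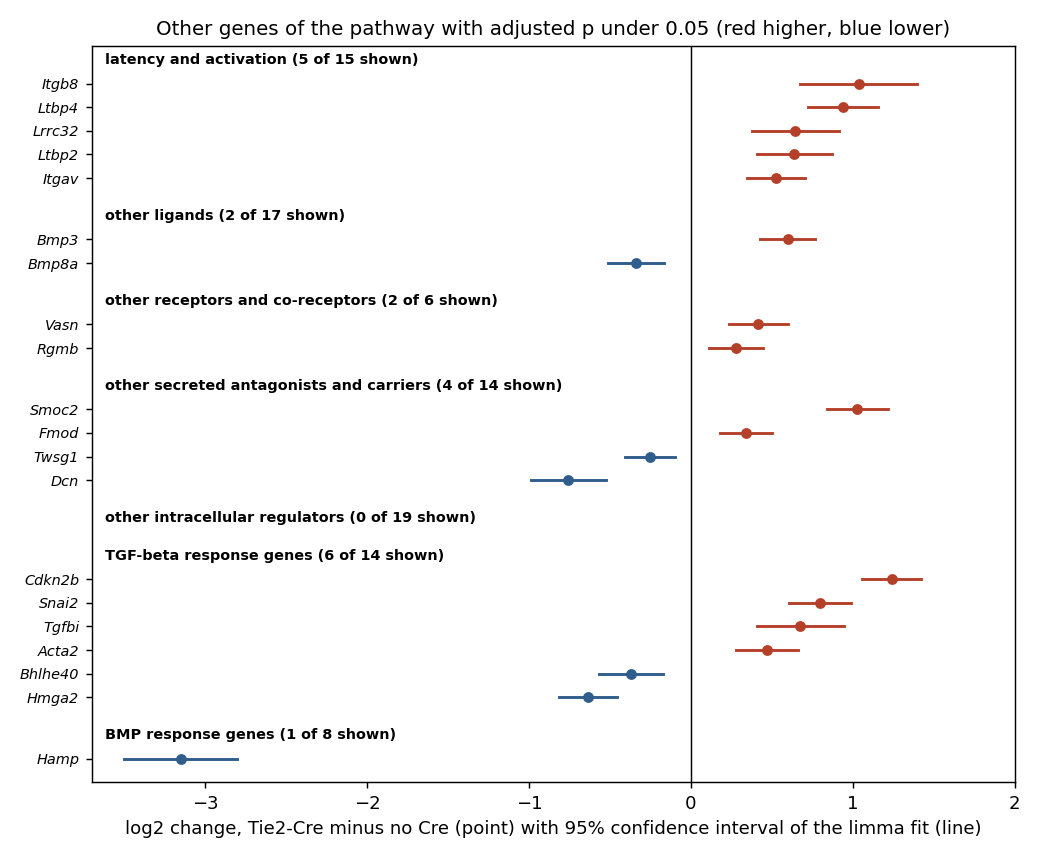
Log2 change, Tie2-Cre minus no Cre (x axis), with the 95% confidence interval of the limma fit, for the 20 of 93 other pathway genes with an adjusted p under 0.05, by list (y axis). The 5 latency and activation genes lie between 0.53 and 1.04. Hamp lies lowest, from levels near the bottom of the scale, so its plotted size is not exact.

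The spread among mice was uneven. Members varied more among the Tie2-Cre mice, with a median SD of 0.12 against 0.059 among the no Cre mice, and the SD was larger with Tie2-Cre for 38 of 49 members. Over all genes the medians were 0.10 and 0.089, and it was larger for 12401 of 22180. Tie2-Cre mouse 4 was set against the mean of mice 1 and 3. There, 4 members, Tgfb3, Bmp6, Grem1 and Tgfbr3, were at least 0.5 away, at 1.43, 1.02, -0.61 and -0.56 (8.16% of members, 2.31% of all genes). The distance of 0.5 was chosen after the values were seen. Likewise, 3 pericyte and smooth muscle markers were far above in mouse 4: Mcam by 1.67, Cnn1 by 1.52 and Myh11 by 1.01. Their part in the ligand values of that mouse was not tested. In the no Cre group, 0 or 1 members per mouse were that far from the other 2, beside 1.1% to 1.48% of all genes. Tie2-Cre mice 1 and 3, each set against a mean that held mouse 4, had 2 and 1 such members (1.47% and 1.07% of all genes). In each of these mice 3 pericyte and smooth muscle markers were that far below.

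**Figure D4:**
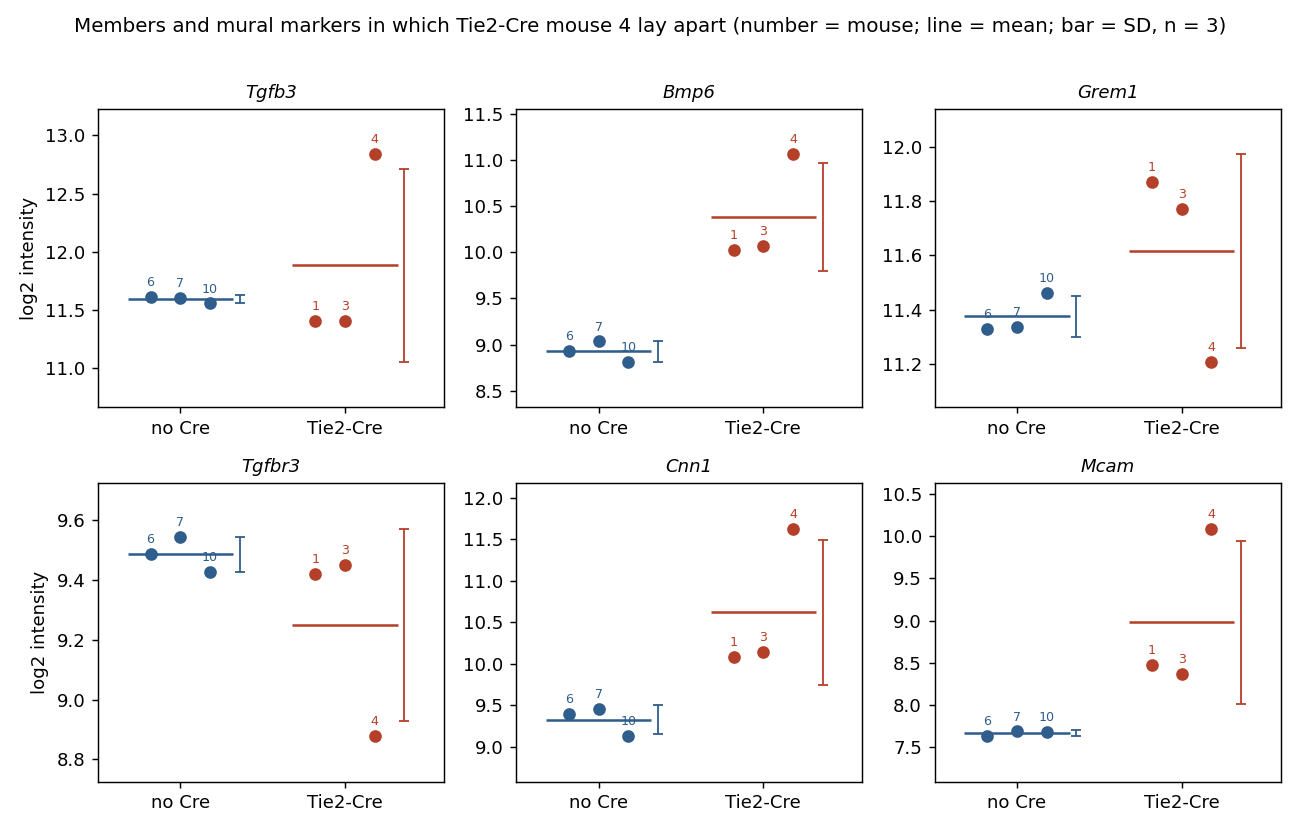
Log2 intensity in each mouse (y axis) by group (x axis) for the 4 members and for 2 pericyte and smooth muscle markers in which Tie2-Cre mouse 4 lay apart, with numbers for mice, a line at each mean and a bar for the SD (n = 3). Mouse 4 stands at 12.84 for Tgfb3 and 11.06 for Bmp6, above the other 5 mice, and at 11.21 for Grem1 and 8.88 for Tgfbr3, below them.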

How the data were processed

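RNA of the cells of 6 mice was labelled with biotin and read on the Affymetrix platform Mouse Gene 2.0 ST, as the labels' protocols and the series text say. The authors ran RMA, which corrects background and quantile normalizes, in Expression Console, a program named in the submitters' processing notes (version not given in the sources used here). What they deposited are linear intensities from 5.13 to 17822, of which log2 was taken here without further scaling. Detection calls were not used here, and the 3 arrays per group limit the precision.

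Of 41345 probe sets, 23521 had 1 gene symbol, 1814 had several, and 16010 were not listed. The brightest probe set of a symbol was kept, which left 22180 genes. All 49 measured members were found in RefSeq's mouse gene list, by identifier and by symbol. The comparison was made with limma 3.58.1 (lmFit, eBayes, two-sided) in R 4.3.3, with the package data.table (1.17.8), and tested on simulated data. Adjusted p-values are Benjamini-Hochberg values over all 22180 genes, with a threshold of 0.05. An exact permutation test of 3 mice against 3 cannot go below 0.1 and was not used. Mouse numbers differ between the groups, so nothing was paired.

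The members, the other lists and the tests were chosen with earlier results of these data known. Every measured member was named, with the value of each mouse for those past the threshold, for Eng and for those with an unadjusted p under 0.05, and of the other pathway genes up to 3 per list with the smallest p. Alternatives covered the probe sets entered, filters on dim genes, normalization, probe sets of a gene, variance model, array weights, the call rule and each mouse left out. Promoter windows came from RefSeq (GRCm38.p6).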

Additional observations from a re-analysis of the deposited data

How the results depend on the processing

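No paired analysis was possible because the mouse numbers differ between the groups. Members past the threshold, 5 higher and 5 lower, came to 3 and 3 with the probe sets without a single symbol added (609 and 899 of all genes in place of 1061 and 1591, and 3 lower other pathway genes in place of 6). With that addition Eng (adjusted p = 0.0579), Tgfb2 (0.0544), Bmp4 (0.0594) and Fstl3 (0.0842) were lost. Higher members numbered 11 without the dimmest 33.3% of genes, 8 after quantile normalization again, and 11 with trend and robust eBayes, where 10 other pathway genes were lower. Both the first and the last of these added Bmp2, Chrdl1, Fstl1, Gdf11, Inhbb, Smad5 and Smurf1 to the 10 members. Quantile normalization added Chrdl1, Gdf11, Inhbb and Smad5, a minimum mean log2 of 5 added Gdf11, Inhbb and Smad5, and array weights added Gdf11 and Inhbb. An unadjusted p under 0.05 with at least 1.5-fold gave 424 and 551 genes, 2 lower members and 3 lower other pathway genes. That rule lost Eng, Fst, Fstl3 and Smurf2, whose changes were under 1.5-fold, and added Bmp2. Leaving out 1 mouse gave 634 to 903 higher and 910 to 1253 lower genes, 3 to 7 and 3 to 5 members, and 12 to 15 and 3 to 5 other pathway genes. The cause of these shifts was not tested.

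Added probe sets, filters on dim genes, the variance model and the call rule leave each change as it is, so direction could not reverse there. Nor could it reverse by leaving out 1 mouse for the 27 members whose groups did not overlap. Over 15 alternatives (14 for Nog, Bmp5 and Bmpr1b, which were among the dimmest genes left out), 38 members kept their direction. The other 11 reversed at least once, none of them past the threshold (smallest adjusted p = 0.164). Array weights gave Gdf10 -0.016, Tgfbr2 -0.0029 and Acvr2b -0.0033. With 1 mouse left out, the ranges of these 11 were -0.0091 to 0.25 for Tgfb1, -0.19 to 0.53 for Tgfb3, -0.028 to 0.18 for Bmp5, -0.0035 to 0.14 for Bmp7, -0.059 to 0.20 for Gdf5, -0.12 to 0.14 for Gdf10, -0.11 to 0.20 for Bmpr1b, -0.027 to 0.030 for Tgfbr2, -0.036 to 0.045 for Acvr2b, -0.077 to 0.090 for Smad2 and -0.15 to 0.042 for Smad7. Without a detection call, signal over background is unknown for the dimmest members.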

Other observations

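Tie2-Cre mouse 4 differed from mice 1 and 3 in genes outside the pathway too, listed here after their values were seen. Over all 22180 genes, 30 were at least 1 above the mean of mice 1 and 3 on the log2 scale in that mouse, and 5 at least 1 below, of which 2 have symbols of a kind not named here (such as Gm-numbered, Rik or small RNA symbols). Map2, a neuronal microtubule protein, stood at 7.55 and 7.58 in mice 1 and 3 and at 9.52 in mouse 4, against 7.50, 7.33 and 7.34 in the no Cre mice. Elastin (Eln), the elastic fibre protein of vessel walls, was 8.84, 9.16 and 10.46 with Tie2-Cre and 7.85, 8.01 and 7.92 without. Sost, the antagonist of BMP and Wnt ligands named sclerostin, was 7.53 and 7.53 in mice 1 and 3 and 8.78 in mouse 4, against 6.98, 6.97 and 6.84. The chemokine gene Ccl3 was among the low ones in mouse 4, at 8.85 beside 9.96 and 9.90, with 6.74, 6.76 and 6.45 in the no Cre mice.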
